A study of Mus musculus with 4 samples.

Results

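Target genes of the transcription factor p53 (gene Trp53) were followed across 4 mouse RNA samples of the gut and of its cultured epithelium. The 10 genes were Cdkn1a, Mdm2, Trp53inp1, Ccng1, Bbc3, Phlda3, Pmaip1, Bax, Fas and Eda2r, found by their gene name among the spots other than controls. They were read by 14 of 39429 probes and by 23 of 43020 spots on each array, and stood for 10 of 30107 named genes or transcripts. RNA came from wild type C57/BL6 mice, and each sample was hybridised to 1 one-colour Agilent array, labelled with Cy3. The samples were intestine, crypt, which is the pit of the gut lining where the stem cells sit, and a pair of crypt-villus organoids named y-organoid and o-organoid. Such organoids are grown in culture from gut epithelium. The sources used here do not give the meaning of y and o, the age of the animals, the time in culture or whether animals were pooled. The o-organoid sample was labelled from 40 ng of RNA, the other samples from 20 ng each. With 1 array per group there are no replicates, so differences describe arrays and carry no test.

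p53 is held at a low level by the ubiquitin ligase Mdm2, which is itself switched on by p53 and so closes a feedback loop. DNA damage and other stresses stabilise p53, which then binds near its target genes and raises products that stop the cell cycle, repair DNA or start cell death. In the intestine it is best known for the death and arrest of crypt cells after irradiation. Several targets are also controlled by other factors, so that a higher transcript alone does not show p53 at work.

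Signals are log2 values of the processed intensity relative to the 75th percentile of the array, whose intensity ranged from 282 (y-organoid) over 386 (intestine) and 472 (crypt) to 644 (o-organoid). A probe counts as measured where the scanner software marks it well above background, and a gene is read by its brightest probe unless stated. Differences are first-named minus second-named array, and a gene was counted as higher or lower at 2-fold, or 1 on the log2 scale. Where a probe was measured on 1 of 2 arrays, the fold is a bound ("at least"), the bright side being set against the higher of the dim signal and the lowest signal among measured probes of that array. The error after an intensity is the scanner software's own. The technical SD of a difference comes from repeated spots at a like signal on the same arrays, and leaves out labelling and hybridisation. Of 43020 spots per array, between 51.9% and 58.7% were well above background, and no spot was saturated. Of 10 stroma and muscle markers, all were measured on the intestine array and 0 on the other 3, whereas all 10 pan-epithelial markers were measured on all 4. Their levels differed. On y-organoid against crypt Vil1 (6.88-fold) and Epcam (2.54-fold) were lower and Krt18 (2.52-fold) higher, 20% and 10% against 13.2% and 18.5% of all genes. On o-organoid against crypt Vil1 alone was lower (4.65-fold, 10% against 13.5%) and 0 were higher, against 8.57%. Xist was measured on the intestine array alone and Eif2s3y and Ddx3y on the other 3, so sex and tissue cannot be told apart in comparisons with intestine.

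The sequences before the start sites of 8 of the 10 genes were taken from RefSeq (build GRCm38.p6) and searched for the p53 consensus element, a pair of adjacent 10-base half-sites that reads alike on both strands. The 250 bases before each start were searched, and both half-sites had to keep their central C and G. Cdkn1a and Ccng1 held a pair with 1 mismatch, and Bbc3 held one with 3. Of 32851 start sites, 19 (0.0578%) held a pair with at most 1 mismatch and 374 (1.14%) a pair with at most 3. The best pair before Phlda3 had 5 mismatches, and the 250 bases before Fas held no pair with both centres intact. These 5 are shown 5′ to 3′ in the direction of the gene, because Cdkn1a, Ccng1 and Bbc3 hold a pair in this window and Phlda3 and Fas differed most between arrays. Capitals mark the pair of half-sites.
Cdkn1a, upstream start, chr17:29090729-29090978, plus strand: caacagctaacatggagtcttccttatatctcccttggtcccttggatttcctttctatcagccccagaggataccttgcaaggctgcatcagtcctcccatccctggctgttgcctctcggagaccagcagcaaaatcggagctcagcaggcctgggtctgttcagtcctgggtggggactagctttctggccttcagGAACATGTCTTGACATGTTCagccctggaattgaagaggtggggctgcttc
Ccng1, chr11:40755287-40755536, minus strand: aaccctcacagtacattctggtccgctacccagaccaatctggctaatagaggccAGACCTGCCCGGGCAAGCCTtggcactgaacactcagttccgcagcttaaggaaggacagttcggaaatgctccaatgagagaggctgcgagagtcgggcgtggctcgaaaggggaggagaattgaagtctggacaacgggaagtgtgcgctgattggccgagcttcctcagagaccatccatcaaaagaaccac
Bbc3, upstream start, chr7:16309333-16309582, plus strand: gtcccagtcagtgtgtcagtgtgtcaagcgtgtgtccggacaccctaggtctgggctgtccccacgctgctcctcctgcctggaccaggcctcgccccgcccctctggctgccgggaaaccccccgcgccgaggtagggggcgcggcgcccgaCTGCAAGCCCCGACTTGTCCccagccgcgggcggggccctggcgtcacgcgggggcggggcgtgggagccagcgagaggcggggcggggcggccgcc
Phlda3, chr1:135765835-135766084, plus strand: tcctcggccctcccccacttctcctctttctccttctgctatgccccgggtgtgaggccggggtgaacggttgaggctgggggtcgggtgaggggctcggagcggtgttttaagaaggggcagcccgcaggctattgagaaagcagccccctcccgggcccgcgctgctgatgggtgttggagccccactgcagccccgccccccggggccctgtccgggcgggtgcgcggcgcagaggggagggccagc
Fas, chr19:34290409-34290658, plus strand: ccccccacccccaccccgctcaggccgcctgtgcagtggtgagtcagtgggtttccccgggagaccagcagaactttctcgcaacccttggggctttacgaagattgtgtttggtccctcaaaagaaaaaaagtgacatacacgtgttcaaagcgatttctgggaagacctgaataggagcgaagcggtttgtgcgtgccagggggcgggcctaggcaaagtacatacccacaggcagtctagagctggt
The element of Cdkn1a ended 31 bases before its upstream start, that of Bbc3 77 bases and that of Ccng1 175 bases before the start. Mdm2 and Bax each held 1 half-site without mismatch, and 2341 of all start sites (7.13%) held at least 1. Cdkn1a and Bbc3 have further starts whose windows held neither a half-site without mismatch nor a pair with up to 3. A match is a description of letters, not a site shown to be bound.

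Of the 10 genes, 9 were measured on all 4 arrays, and Eda2r was measured on none. The 9 genes did not move as a block. Phlda3 was far higher on both organoid arrays than on the crypt array, Fas was far lower on both, and Bax and Bbc3 were higher on the y-organoid array. Cdkn1a, Mdm2, Ccng1 and Pmaip1 stayed within 2-fold in each of the 4 comparisons under the main setting. Under that setting the y-organoid array gave the highest signal for Phlda3, Bax, Bbc3, Ccng1 and Cdkn1a. For Cdkn1a the intestine array lay within 2 single-spot technical SDs of it (2.77 against 2.87). With the authors' deposited scaling Ccng1 and Cdkn1a were higher on o-organoid than on y-organoid (differences of 0.03 for Ccng1 and 0.35 for Cdkn1a).

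**Figure D1:**
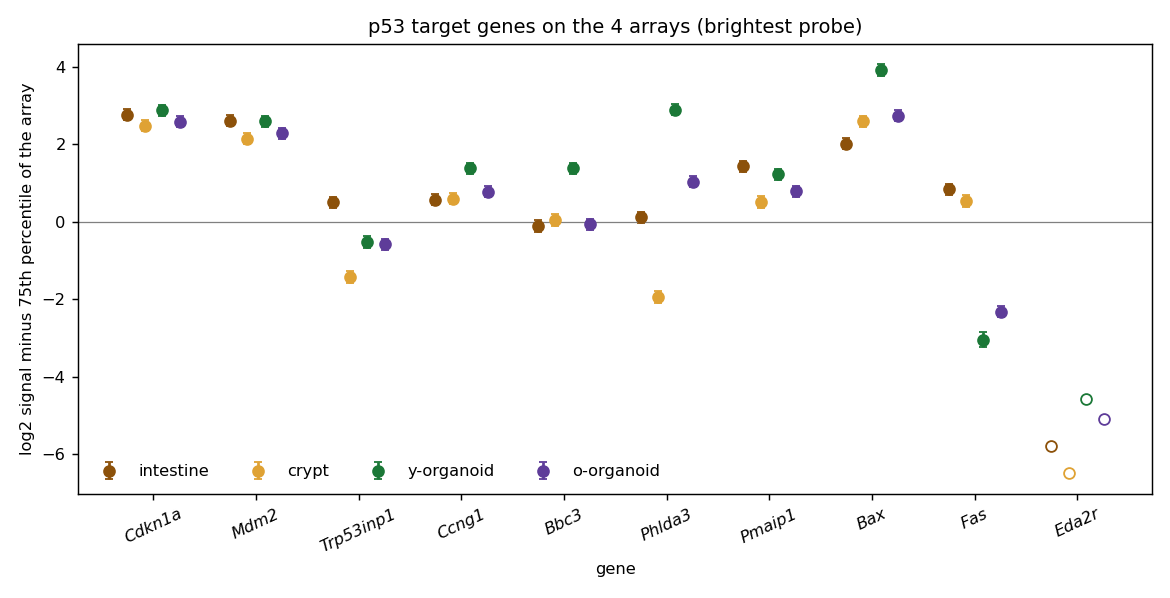
Signal of each p53 target gene by its brightest probe (y axis: log2 of the processed intensity minus the 75th percentile of the array) on the intestine, crypt, y-organoid and o-organoid arrays. Bars are the scanner software's error and open points are not well above background; Phlda3 runs from -1.94 on crypt to 2.89 on y-organoid and Fas from 0.83 on intestine to -3.04 on y-organoid.

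Mdm2, the ligase that marks p53 for breakdown, gave 2356 ± 236 for intestine, 2093 ± 209 for crypt, 1696 ± 170 for y-organoid and 3140 ± 314 for o-organoid as intensities. Scaled to each array these were signals of 2.61, 2.15, 2.59 and 2.29. Intestine and y-organoid stood level at the top, and o-organoid and crypt stood level below, each pair within 2 technical SDs. Crypt minus intestine was -0.46 (1.38-fold), and 0.29 with the deposited scaling. Against crypt, Mdm2 was 1.36-fold higher on y-organoid (0.44, but -0.08 with the deposited scaling) and 1.10-fold higher on o-organoid (0.14).

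Cdkn1a encodes p21, the inhibitor of cyclin-dependent kinases through which p53 halts the cell cycle. Its main probe was spotted 10 times, which gives it the most precise values of the group. The mean intensity was 2627 for intestine (spots from 2491 to 2713), 2632 for crypt (2429 to 2926), 2067 for y-organoid (2009 to 2168, over the 8 spots that were no outliers) and 3861 for o-organoid (3717 to 3976). The signals were 2.77, 2.48, 2.87 and 2.58, so y-organoid and intestine stood highest and o-organoid and crypt lowest. The difference from crypt was 0.40 for y-organoid (1.32-fold, technical SD 0.09), and -0.12 with the deposited scaling. For o-organoid it was 0.11 (1.08-fold, SD 0.08). These SDs are those of single spots, and so are too wide for means of 8 or 10 spots.

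A pair of further probes carry the name Cdkn1a, and both were dim. The first 30 bases of each 60-base probe are shown because the 3 read different stretches of the locus (build mm9, plus strand, as in the files).
A_51_P363947, chr17:29237377-29237436: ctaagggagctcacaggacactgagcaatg
A_55_P1976204, chr17:29235299-29235358: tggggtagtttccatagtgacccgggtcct
A_55_P1986282, chr17:29227986-29228045: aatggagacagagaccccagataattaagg
The probe farthest upstream, A_55_P1986282, was measured on the y-organoid array alone, at an intensity of 29.1 ± 4.20. Intensities of 9.34 (intestine), 14.7 (crypt) and 15.4 (o-organoid) on the other arrays were not well above background. It was thus at least 2.39-fold higher on the y-organoid than on the crypt array and at least 3.32-fold higher than on the o-organoid array. A single dim spot carries this value. The middle probe, A_55_P1976204, was measured on all 4 arrays at intensities of 20.2 to 34.5, with -0.03 for y-organoid minus crypt and -0.80 for o-organoid minus crypt, so it did not follow either of the others. Whether these probes lie in exons, introns or untranslated regions was not analysed here.

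**Figure D2:**
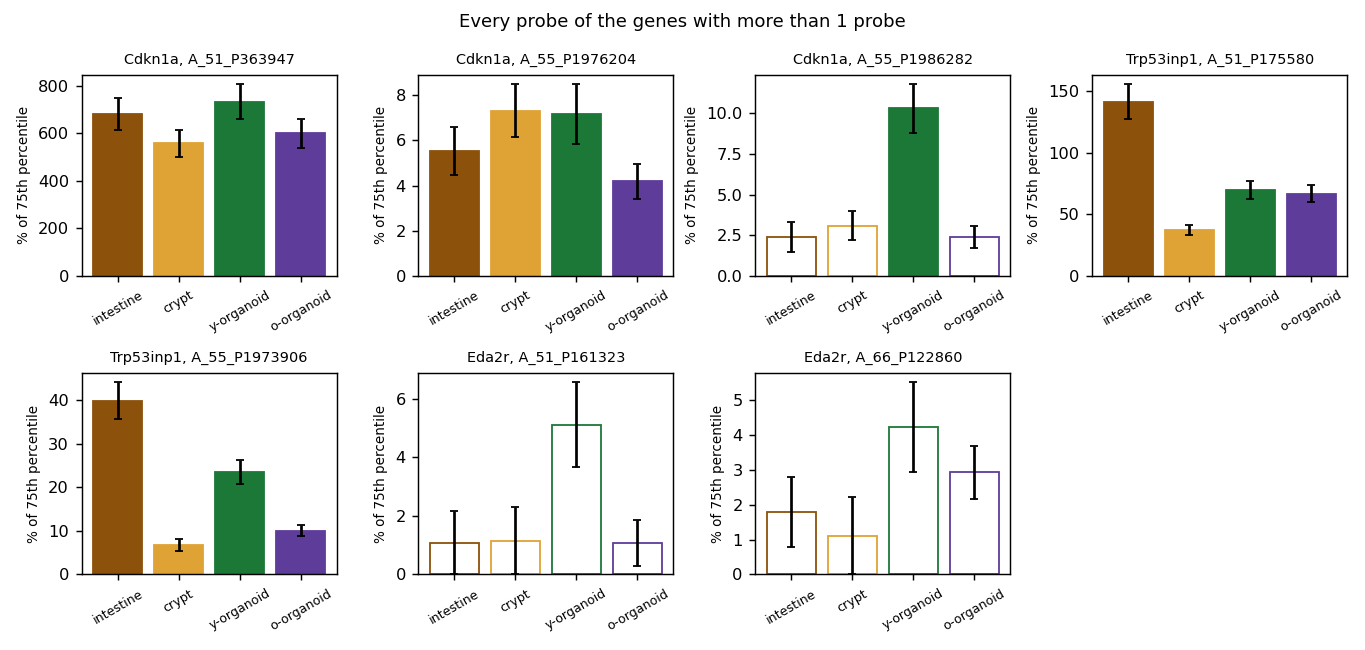
Intensity of every probe of Cdkn1a, Trp53inp1 and Eda2r as a percent of the 75th percentile of the array (each panel has its own y axis from 0), with the scanner software's error. Open bars are not well above background; the upstream Cdkn1a probe is filled on y-organoid alone, at an intensity of 29.1, and all Eda2r bars are open.

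Ccng1 encodes cyclin G1, a partner of the phosphatase PP2A that feeds back on Mdm2. Its intensity was 571.6 ± 57.3 for intestine, 715 ± 71.7 for crypt, 734.5 ± 73.6 for y-organoid and 1104 ± 110.5 for o-organoid. After scaling, y-organoid stood highest (1.38), followed by o-organoid (0.78), crypt (0.60) and intestine (0.56), and crypt and intestine were within 2 technical SDs. Ccng1 was 1.72-fold higher on the y-organoid than on the crypt array, a difference of 0.78 with a technical SD of 0.09 (0.27 with the deposited scaling).

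The mitochondrial arm of p53-driven cell death runs through Bax, which opens the outer mitochondrial membrane, and through Bbc3 (Puma) and Pmaip1 (Noxa), small BH3-only proteins that neutralise Bcl2-like survival proteins. Bax gave intensities of 1562 ± 156 for intestine, 2857 ± 286 for crypt, 4259 ± 426 for y-organoid and 4296 ± 429.6 for o-organoid. Its signals were 2.02, 2.60, 3.92 and 2.74, with y-organoid alone at the top and o-organoid and crypt within 2 technical SDs of each other. Bax was 2.50-fold higher on the y-organoid than on the crypt array (1.32, technical SD 0.09), 1.10-fold higher on the o-organoid than on the crypt array, and 2.26-fold lower on the o-organoid than on the y-organoid array (-1.18). Crypt minus intestine was 0.58 for Bax, and 1.33, past 2-fold, with the deposited scaling.

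Bbc3 likewise stood highest on the y-organoid array. Its intensity was 357.5 ± 35.9 for intestine, 486.5 ± 48.8 for crypt, 733 ± 73.4 for y-organoid and 616 ± 61.8 for o-organoid. The signal was 1.38 on y-organoid against 0.04 on crypt, -0.06 on o-organoid and -0.11 on intestine, and the last 3 lay within 2 technical SDs of their neighbours. Bbc3 was 2.53-fold higher on the y-organoid than on the crypt array (1.34) and 2.72-fold lower on the o-organoid than on the y-organoid array (-1.44). With the authors' deposited scaling, Bax and Bbc3 differed by 0.80 and 0.82 between y-organoid and crypt and by -0.54 and -0.80 between the organoids, under 2-fold. That scaling moves the median of all genes from 0.16 to -0.36 in the first comparison and from -0.15 to 0.43 in the second. Relative to that median, the y-organoid minus crypt difference of Bbc3 was 1.18 under the main scaling and 1.17 under the deposited one, and that of Bax 1.16 under both.

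Pmaip1 had signals of 1.43 (intestine), 1.22 (y-organoid), 0.78 (o-organoid) and 0.51 (crypt), in descending order, from intensities of 1042 ± 104, 658 ± 65.9, 1108 ± 111 and 673 ± 67.4. Each step in that order exceeded 2 technical SDs. Pmaip1 thus stood highest on intestine, unlike Bax and Bbc3, and was 1.89-fold lower on the crypt than on the intestine array (-0.92). That difference ran from -1.11, past 2-fold, with the percentile taken over probes above background on all arrays to -0.17 with the deposited scaling. Against crypt it was 1.64-fold higher on y-organoid (0.71, and 0.20 with the deposited scaling) and 1.21-fold higher on o-organoid.

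Fas and Eda2r are receptors of the tumour necrosis factor family. Fas starts cell death when bound by its ligand, and Eda2r binds a form of ectodysplasin. Fas gave intensities of 689 ± 69.0 for intestine, 684 ± 68.5 for crypt, 34.3 ± 4.68 for y-organoid and 129 ± 13.6 for o-organoid. Intestine and crypt were both high and the organoids both low. The signals were 0.83, 0.53, -3.04 and -2.32. Fas was 11.9-fold lower on the y-organoid than on the crypt array (-3.57, technical SD 0.24) and 7.23-fold lower on the o-organoid than on the crypt array (-2.85, SD 0.17). With normexp background correction these were -2.37 and -2.39. The difference between the organoids was 0.72 under the main setting, -0.02 with normexp and 1.36 with the deposited scaling, so their order depends on the setting. Fas was read by 1 probe, whose first 30 bases are shown with those of the Phlda3 probe, the other single probe with wide differences (build mm9, plus strand).
A_55_P2091676, Fas, chr19:34402164-34402223: gaagaccttccattgatggacagttctttt
A_51_P329928, Phlda3, chr1:137665642-137665701: gtaagggttggccctttaccatttcatgct

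Immune cell markers also differed between these arrays. Of 10 markers, 10 were measured on the intestine, 7 on the crypt, 4 (Cd3e, Cd79a, Cd68 and Itgam) on the y-organoid and 5 (these and Lyz2) on the o-organoid array, with summed intensities of 45200, 13400, 11620 and 8339. The integrin gene Itgam alone made up 12130 of the crypt, 11120 of the y-organoid and 7632 of the o-organoid sum. The median scaled signal of the 10 markers was 0.56, -3.30, -5.12 and -5.12 in the same order of arrays, and Itgam itself was 0.62 higher on y-organoid than on crypt. These Itgam values rest on its brightest probe, with a y-organoid signal of 5.30. Its other probes were dim, at -3.47 and -3.85 on y-organoid. They were higher there than on crypt by at least 2.09-fold and by 0.45. Ptprc, the pan-leukocyte marker, was measured on the intestine and crypt arrays and was not well above background on either organoid array. The part of these cells in the Fas signal was not tested, and in bulk RNA fewer cells of a type and less RNA per cell cannot be told apart. Fas differed by -0.30 between crypt and intestine. In that comparison 9 of the 10 immune markers were lower on crypt by the 2-fold rule (90%, against 14.4% of all genes), with a median of -2.74. The stroma and muscle markers went from all 10 measured on intestine to 0 on crypt. The Fas ligand gene, Fasl, was measured on the intestine array alone, and its crypt signal was lower by at least 2.69-fold.

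Eda2r was read by 2 probes, of which neither was well above background on an array. Their intensities were 4.19 and 6.95 for intestine, 5.46 and 5.23 for crypt, 14.4 and 11.9 for y-organoid, and 6.94 and 18.9 for o-organoid. No fold is given for Eda2r, which lies on chromosome X.

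Phlda3 encodes a small pleckstrin-homology protein that competes with the kinase Akt for membrane lipids and so restrains Akt. It spanned the widest range of the group. Its intensity was 123 ± 13.45 for crypt, 419 ± 42.1 for intestine, 1320 ± 132 for o-organoid and 2095 ± 209.5 for y-organoid. The signals were -1.94, 0.12, 1.03 and 2.89, and each step exceeded 2 technical SDs. Phlda3 was 28.5-fold higher on the y-organoid than on the crypt array (4.83, technical SD 0.11) and 7.87-fold higher on the o-organoid than on the crypt array (2.98, SD 0.10). It was 4.17-fold lower on the crypt than on the intestine array (-2.06) and 3.63-fold lower on the o-organoid than on the y-organoid array (-1.86). Over the main setting and 8 alternatives the 4 differences ran from 4.09 to 5.05, 2.43 to 3.15, -2.25 to -1.31 and -1.98 to -1.22, so that each call held; the lowest of the first was with normexp and the smallest of the last pair with the deposited scaling. Phlda3 has 1 probe, with no second reading on these arrays.

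Trp53inp1 encodes a nuclear cofactor of p53 with a part in stress response and autophagy. Its brighter probe gave intensities of 545.5 ± 54.7 for intestine, 176 ± 18.1 for crypt, 197 ± 19.9 for y-organoid and 430 ± 43.2 for o-organoid. The signal was highest on intestine (0.50), then level on y-organoid (-0.52) and o-organoid (-0.58), and lowest on crypt (-1.42). The second probe had intensities of 154, 32.1, 66.5 and 64.35 in the order intestine, crypt, y-organoid, o-organoid, and likewise stood highest on intestine and lowest on crypt. Crypt minus intestine was -1.92 by the first and -2.56 by the second probe (3.79- and 5.88-fold lower), and -1.17 by the first with the deposited scaling. The 2 probes parted on the organoids: y-organoid minus crypt was 0.90 and 1.80, o-organoid minus crypt 0.84 and 0.56, and o-organoid minus y-organoid -0.06 and -1.24. Over the alternatives y-organoid minus crypt ran from 0.39 with the deposited scaling to 1.35 with the mean of both probes, and passed 2-fold under the latter and with the percentile over probes above background on all arrays. Under that percentile o-organoid minus crypt was 1.01.

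In the comparison of crypt with intestine, 2 of the 9 measured genes, Phlda3 and Trp53inp1, were lower on the crypt array by the 2-fold rule and 0 were higher. Among all 18199 genes measured on either array, 14.4% were lower and 6.69% higher by that rule. The median difference was -0.30 for the 9 genes and 0.06 for all genes. The intestine array held stroma and muscle, immune and pancreas transcripts that were low or not measured on the crypt array. All 6 pancreas markers were measured there, and their part in these differences was not tested.

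In the comparison of y-organoid with crypt, 3 of 9 genes were higher (Phlda3, Bbc3 and Bax) and 1 was lower (Fas). The background was 18.5% higher and 13.2% lower among 17191 genes. The median was 0.78 for the 9 genes against 0.16 for all genes, and 8 of the 9 had a positive difference under the main setting. The share of all genes with a positive difference was not counted, and their median was itself above 0. Relative to that median Cdkn1a and Mdm2 differed by 0.24 and 0.28. With the deposited scaling, under which Cdkn1a (-0.12) and Mdm2 (-0.08) were below 0, 1 gene was higher and the median was 0.27. In the comparison of o-organoid with crypt, 1 gene was higher (Phlda3) and 1 lower (Fas), against 8.57% and 13.5% of 17196 genes, and the medians were 0.14 and 0.00.

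In the comparison of o-organoid with y-organoid, 3 of 9 genes, Phlda3, Bbc3 and Bax, were lower on the o-organoid array and 0 were higher. Among 17290 genes 19.3% were lower and 8.03% higher. The median was -0.44 for the 9 genes and -0.15 for all genes, and it was 0.20 with the deposited scaling against 0.43 for all genes. The comparisons of crypt with intestine and of each organoid with crypt all share the crypt array. Those of the organoids share the y- or o-organoid array. The values of the comparisons are thus not independent of each other.

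**Figure D3:**
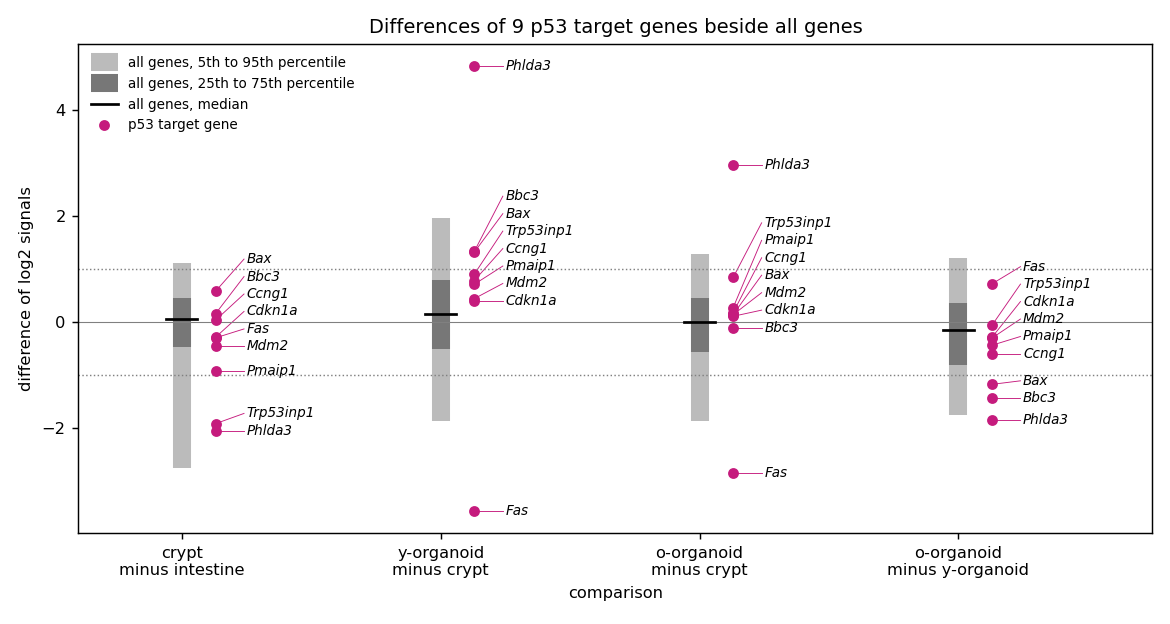
Difference of log2 signals (y axis) of the 9 measured p53 target genes in the 4 comparisons, beside percentile bands and the median of all genes measured on either array. Dotted lines mark 2-fold; Phlda3 lies at 4.83 and Fas at -3.57 for y-organoid minus crypt.

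A list of 40 further p53 targets was read in the same way, but under the main setting only. The same holds for the lists that follow, so whether their calls near 2-fold depend on the setting was not tested. On y-organoid against crypt, 13 of 34 measured members were higher (38.2%, against 18.5% of all genes) and 5 lower (14.7%, against 13.2%), with a median of 0.56 against 0.16. Gdf15, a secreted stress cytokine, was 21.1-fold higher (intensities of 2347 and 186), and Psrc1, a spindle protein, 14.9-fold higher. Lif, a cytokine, was measured on the y-organoid array alone and was at least 8.43-fold higher than on the crypt array. Zmat3, an RNA-binding protein, was 5.51-fold higher, and Sesn2, a sestrin that restrains growth signalling, 3.87-fold, whereas its relative Sesn1 was 3.16-fold lower. On o-organoid against crypt, 4 of 33 were higher and 4 lower (median 0.17), each 12.1% and near the 8.57% and 13.5% of all genes. Among them were Gdf15, 6.76-fold higher, the epoxide hydrolase gene Ephx1, 3.58-fold higher, and Abhd4, 2.80-fold lower. On o-organoid against y-organoid 1 of 34 was higher (2.94%, against 8.03%) and 10 were lower (29.4%, against 19.3%), with Gdf15 3.13-fold, Psrc1 6.38-fold, Zmat3 2.93-fold and Lif lower by at least 11.7-fold. On crypt against intestine 6 of 36 were higher (16.7%, against 6.69%) and 3 lower (8.33%, against 14.4%), the latter being Pltp (9.75-fold lower), Plk2 and Ackr3 (lower by at least 4.84-fold and 4.62-fold).

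Of 15 genes of the p53 family and its regulators, 14 were measured in each comparison. Trp53 itself, read by 1 probe, had signals of -2.44 for intestine, -1.11 for crypt, -0.72 for y-organoid and 1.19 for o-organoid. It was thus highest on o-organoid, 4.93-fold above crypt and 3.77-fold above y-organoid, whereas Phlda3, Bax and Bbc3 were highest on y-organoid. Mdm4, the partner of Mdm2 that masks p53, was 8.55-fold higher on the y-organoid than on the crypt array, and 4.10-fold by its second probe. Against y-organoid it was 5.45-fold lower on o-organoid. Ppm1d, a phosphatase that turns p53 signalling off, was 2.09-fold higher on the o-organoid than on the y-organoid array, and Trp73 differed by less than 2-fold in each comparison. Cdkn2a, the source of the Mdm2 inhibitor p19Arf, was not well above background on any array. Trp63 was 2.75-fold lower on the o-organoid than on the crypt array by 1 probe, and its other 3 probes were not well above background.

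Of 10 genes of the DNA damage response, 5 of 9 were higher on the crypt than on the intestine array (55.6%, against 6.69% of all genes, with a median of 1.06). Among them Chek2 was 3.47-fold, Topbp1 2.93-fold and the histone gene H2ax 2.57-fold higher. In the same comparison 14 of 15 cell cycle genes that p53 and p21 hold down were higher (93.3%; median 1.63), with Top2a 4.08-fold and Mki67 2.81-fold higher. On y-organoid against crypt 3 of 9 damage genes were higher (33.3%, against 18.5%): Mdc1 2.69-fold, Atr 2.12-fold and Atm 4.69-fold, the last by 1 of its 2 probes, the other giving -0.13. On o-organoid against crypt 0 of 10 passed 2-fold in either direction, against 8.57% higher and 13.5% lower among all genes. Of the cell cycle genes, 1 of 15 was higher on the y-organoid than on the crypt array (6.67%, against 18.5% of all genes). On the o-organoid array 0 of 15 were higher than on crypt, against 8.57% of all genes. None was lower by 2-fold on either organoid array, against 13.2% and 13.5% of all genes. Mki67 differed from crypt by 0.26 on y-organoid and 0.14 on o-organoid, and by 0.92 and 0.33 with its second probe. On o-organoid against y-organoid 2 of 15 cell cycle genes were higher, Cenpa (2.72-fold) and Top2a (2.16-fold), and 0 lower. That is 13.3% and 0% against 8.03% and 19.3% of all genes. Of 10 damage genes Rad17 was higher there (2.06-fold) and Atm lower (2.69-fold, its other probe giving 0.90), each 10% of the list.

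Other members of the Bcl2 family differed in both directions. On y-organoid against crypt 1 of 12 was higher, the survival gene Bcl2 (3.86-fold), and 3 were lower, shares of 8.33% and 25% against 18.5% and 13.2% of all genes. These were Bad (4.82-fold), Mcl1 (2.46-fold) and Bak1, the relative of Bax (2.18-fold). On o-organoid against crypt 2 of 12 were higher, Bcl2 (3.58-fold) and Bid (2.05-fold, named after its value was seen), and 2 lower, Bad (2.37-fold) and Bak1 (2.22-fold), each 16.7% against 8.57% and 13.5% of all genes. Bad was the 1 gene of the list past 2-fold between the organoids, 2.04-fold higher on o-organoid. That is 8.33% higher and 0% lower, against 8.03% and 19.3% of all genes. On crypt against intestine 2 of 11 were lower, Bmf (3.995-fold) and Bok (2.45-fold), which is 18.2% against 14.4% of all genes, and Bcl2l1, which encodes the survival protein Bcl-xL, stayed within 2-fold in each comparison.

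Genes of the caspase and death receptor pathway were read beside Fas. On y-organoid against crypt 3 of 13 were lower (23.1%, against 13.2% of all genes), among them Cflar, an inhibitor of caspase-8 (3.19-fold), and Ripk1 (2.23-fold). On o-organoid against crypt 4 of 13 were lower (30.8%, against 13.5%), among them Cflar (2.55-fold) and, named after its value was seen, Tradd (2.52-fold). In these comparisons with crypt 0 were higher, against 18.5% and 8.57% of all genes. On o-organoid against y-organoid 1 of 13 was higher, Ripk1 (2.34-fold), which is 7.69% against 8.03% of all genes. In that comparison 0 were lower, against 19.3% of all genes. Casp8, the caspase that Fas recruits, was within 2-fold in each comparison. Of 6 other inhibitors of cyclin-dependent kinases, Cdkn2b was 4.19-fold lower on y-organoid and 3.24-fold lower on o-organoid than on crypt, and the others, Cdkn1b among them, differed by less than 2-fold.

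**Figure D4:**
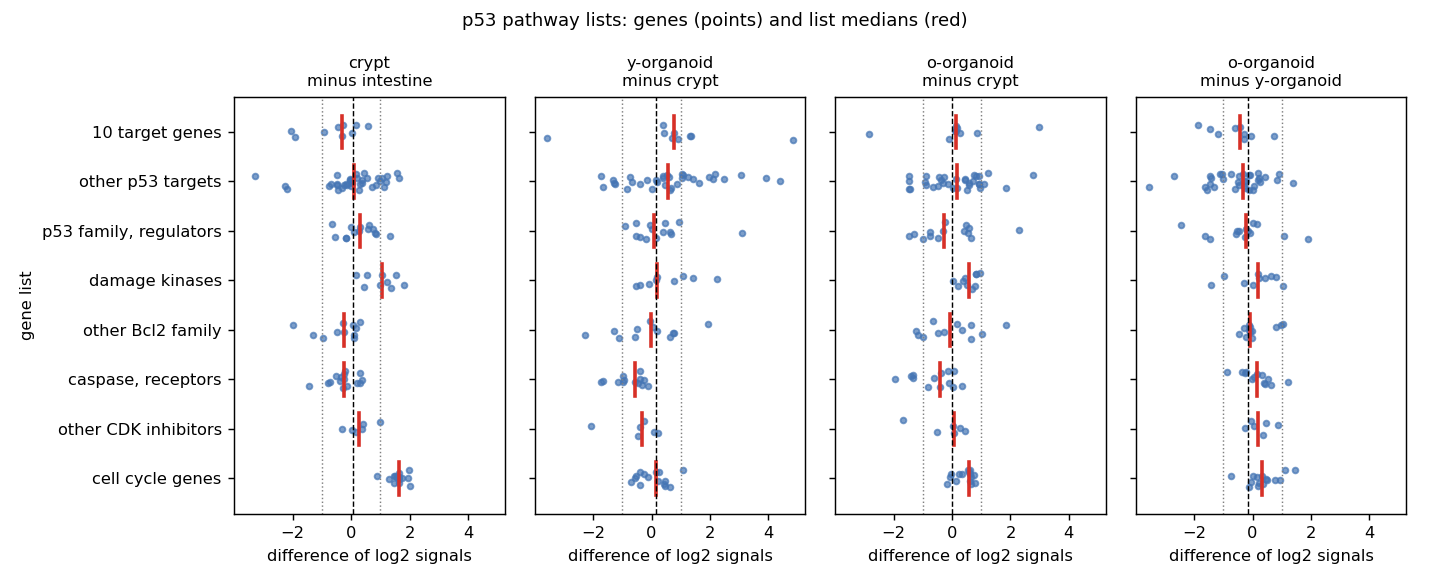
Differences of log2 signals (x axis) of the genes of 8 lists of the p53 pathway in the 4 comparisons, with each gene as a point and list medians in red. The dashed line is the median of all genes and dotted lines mark 2-fold; the other p53 targets have a median of 0.56 for y-organoid minus crypt and -0.31 for o-organoid minus y-organoid.

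Of 14439 genes measured on all 4 arrays, those with names of the form used for unnamed probes, loci, clones or predicted genes were left out. Among the rest, the genes with the most similar course were sought by the Euclidean distance between centred log2 signals. For Fas these were Btnl1 (distance 0.14), Guca2b (0.18) and Fabp1 (0.19). Fabp1, a fatty acid binding protein, had signals of 9.10 for intestine, 8.84 for crypt, 5.17 for y-organoid and 6.14 for o-organoid. For Phlda3 they were Nlgn2 (0.29), Rgs11 (0.33) and Arntl2 (0.41), and for Trp53inp1 Peg13 (0.16), Lamb2 (0.21) and Rgs19 (0.22). With 4 arrays such a likeness is a description of these arrays.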

How the data were processed

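The authors deposited 1 scanner file per array, with a linear intensity for every spot. Per the file headers, Agilent Feature Extraction 10.7.3.1 had subtracted background, detrended the signal and set surrogate values for dim spots. Probe coordinates are of build mm9. The authors also deposited a value table, a linear ratio of each processed intensity to 1 constant per array (40.5 for intestine, 29.5 for crypt, 25.2 for y-organoid, 36.9 for o-organoid), with a median of 1 in each column. Further steps are not given in the sources used here.

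Control spots (1377 per array) were dropped, and 108 to 165 outlier spots per array did not enter the probe means. The log2 of the processed intensity minus the array's 75th percentile was averaged over spots. Genes other than the 10 targets were named through the RefSeq table of GRCm38.p6, used for names only: accessions named 27228 probes, symbols 3581 and synonyms 565, and the file's own name was used for 8055. Calculations used Python 3.11.15, pandas 2.3.3, R 4.3.3 and limma 3.58.1, and were tested on simulated data. The number of arrays limits the precision.

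The 10 genes and all lists were chosen with earlier results of these data known. Named genes were the 10 targets with every probe, for each other list the up to 3 genes that differed most past 2-fold per comparison, a fixed set (Trp53, Mdm4, Trp63, Trp73, Cdkn2a, Ppm1d, Gdf15, Sesn1, Sesn2, Zmat3, Bcl2, Bcl2l1, Mcl1, Bak1, Fasl, Casp8, Cdkn1b, Mki67), and the 3 nearest genes by pattern. Alternatives were normexp background correction (offset 50), the deposited scaling, quantile normalization, a percentile over probes above background on all arrays, the mean of a gene's probes, no probes with a GA or TC repeat of 5 or more units, no filter on dim probes, and outlier spots kept. Sequences of Pmaip1 were not used here, and some genes of the lists that the rule names are not reported here.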

Additional observations from a re-analysis of the deposited data

How the results depend on the processing

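Of 288 values of single genes under 8 alternatives, 0 reversed the sign of a 2-fold call, and 114 moved by more than the technical SD. Calls were also lost or gained. With the deposited scaling Bax and Bbc3 fell under 2-fold in y-organoid against crypt and between the organoids. Bax passed it in crypt against intestine. Fas passed 2-fold between the organoids with that scaling and with quantile normalization. Pmaip1 (crypt against intestine) and Trp53inp1 (each organoid against crypt) passed it under the settings named above. The calls of Phlda3 and Fas held under all 8 in each comparison with crypt. With the deposited scaling, the number of higher genes was 1 in crypt against intestine, with a median of 0.45 in place of -0.30. It was 1 in y-organoid against crypt (median 0.27), and the median of o-organoid against crypt was 0.26. In o-organoid against y-organoid it gave 1 higher, 1 lower and a median of 0.20 in place of -0.44. With quantile normalization the medians of crypt against intestine, o-organoid against crypt and o-organoid against y-organoid were -0.40, 0.30 and -0.54, and 1 gene, Fas, was higher in the last. With the percentile over probes above background on all arrays the medians were -0.49, 0.99 and 0.31 in the first 3 comparisons, and 2 genes were higher in o-organoid against crypt. With no filter on dim probes 2 genes were higher there as well, since Eda2r then had a value. Normexp gave medians of 0.64 for y-organoid against crypt and -0.34 for o-organoid against y-organoid, and the mean of a gene's probes gave -0.65 for the latter. The remaining counts and medians stayed within 1.5 times or the technical SD. Leaving out a probe with a GA or TC repeat changed no call, and none of the 14 probes holds one. No paired analysis was possible because each group has 1 array, and for the same reason no replicate could be left out. Signal over background limits Fas on the organoid arrays, the upstream Cdkn1a probe and Eda2r.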
